A study of Mus musculus with 24 samples.

Results

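The genes described here make cholesterol or hold its synthesis in check. They were followed in brain endothelial cells of wt mice and of Sox17iECKO mice, in which deletion of the transcription factor gene Sox17 was induced in endothelium. They were chosen by symbol and are 8 of the 45468 genes in the count tables: Hmgcs1, Idi1, Fdps, Sqle, Lss, Cyp51, Dhcr7 and Insig1. None of the 8 encodes a receptor for lipoprotein uptake, so uptake genes are given as a separate list. At P9, 5 of the 8 genes were lower in Sox17iECKO cells than in wt cells, at 45.1% to 60.2% of the wt mean, at a stage where 28% of all genes tested differed. At E15.5, at P5 and in adults, where 0.548%, 0.53% and 0.0874% of all genes tested differed, 0 of the 8 passed the test. In wt cells 5 of the 8 genes, Hmgcs1, Sqle, Lss, Cyp51 and Dhcr7, had their lowest mean at P5 and were higher both in embryos and in adults.

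Cells came from E15.5 embryos, from P5 and P9 pups and from adult mice, with 3 libraries of each genotype at each stage, independent biological replicates per the labels, and 24 libraries in all. All mice were Sox17flox/flox and all were given tamoxifen, so that both genotypes share the floxed allele and the drug. Sox17iECKO mice also carried Cdh5(PAC)-Cre-ERT2, a tamoxifen-activated Cre recombinase driven by the promoter of the endothelial gene Cdh5, and wt mice did not carry it. For the embryonic stage the pregnant mother received 1 mg of tamoxifen on embryonic days 11.5 and 13.5, pups received 100 µg at P1, and adults received 4 doses of 1.5 mg at 6 weeks of age and were taken 1 week later. Brain cells were dissociated, depleted of CD45+ blood cells and selected for CD31, with one dissociation kit for E15.5 and P5 and another for P9 and adults. P5 and P9 pups shared a tamoxifen schedule, but P9 pups were taken longer after the dose. Between them, stage cannot be told apart from the time since the dose. In every other comparison of stages the stage cannot be told apart from the schedule. Comparisons of E15.5 or P5 with P9 or adults cannot be told apart from the kit either.

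Each library held 12301779 to 19830600 counts on genes, and 3 counts, the smallest level taken as detectable, corresponded to 0.151 to 0.244 CPM (counts scaled to the size of the library). Sox17 itself was called lower in Sox17iECKO cells at every stage, at 10.1% of the wt mean at E15.5, 6.01% at P5, 7.01% at P9 and 17.8% in adults, where the 3 Sox17iECKO libraries had 57.3, 22.5 and 78.2 CPM against 318, 298 and 274 CPM in wt. All 10 endothelial markers examined were present in every group. Their summed level at P9 was 16466 to 20407 CPM in Sox17iECKO and 15448 to 15896 CPM in wt libraries. At P9, 3 of the 10 (Esam, Erg and Cldn5) were called higher in Sox17iECKO and 2 (Kdr and Tek) lower. Of all genes tested, 13.5% were called higher and 14.6% lower. The selected fraction also held RNA of other cell types. Summed oligodendrocyte markers averaged 1535 CPM in P9 Sox17iECKO and 1520 CPM in P9 wt libraries, and 23672 CPM in adult Sox17iECKO and 25949 CPM in adult wt libraries. Some libraries stood apart over the 8 genes: P5 Sox17iECKO library 1 was the lowest of its group for 8 of 8 genes, P9 Sox17iECKO library 2 was the lowest of its group for 7, and P9 Sox17iECKO library 3 was the highest of its group for 7.

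Cholesterol is made from acetyl-CoA through the mevalonate pathway, which first builds isoprenoid units, joins them into squalene and then closes and trims the sterol ring. Hmgcs1 makes HMG-CoA, the precursor of mevalonate. Idi1 and Fdps act on isoprenoids and yield farnesyl diphosphate, Sqle oxidises squalene, Lss closes the ring to lanosterol, Cyp51 removes a methyl group from it, and Dhcr7 carries out the last reduction to cholesterol. Transcription of these genes is driven by SREBP-2, the product of Srebf2, which is released from the endoplasmic reticulum when sterols are scarce. Insig1 holds the SREBP escort protein Scap in that membrane when sterols are plentiful, and is itself a target of SREBP. The adult brain makes its cholesterol locally, since lipoproteins of the blood do not cross the blood-brain barrier, and astrocytes and oligodendrocytes are known as large producers.

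SREBP binds sterol regulatory elements, usually together with factors that bind CCAAT boxes, so the promoter windows were read for these letters. RefSeq windows of 300 bases on GRCm38.p6, the same assembly as mm10, which run from 250 bases before to 50 bases after an annotated start, were found for 6 of the 8 genes. Those of 3 genes that were lower at P9 and of 2 that were not called are shown, each 5′ to 3′ on the strand of the gene. Capitals mark TCACNCCAC (a sterol regulatory element core), CACGTG (an E-box) and CCAAT, or their reverse complements, in any of the windows. The Hmgcs1 window is chr13:119690101-119690400 on the plus strand, the Cyp51 window chr5:4104648-4104947 on the minus strand, the Dhcr7 window chr7:143829964-143830263 on the plus strand, the Insig1 window chr5:28071162-28071461 on the plus strand and the Lss window chr10:76531355-76531654 on the plus strand.
Hmgcs1: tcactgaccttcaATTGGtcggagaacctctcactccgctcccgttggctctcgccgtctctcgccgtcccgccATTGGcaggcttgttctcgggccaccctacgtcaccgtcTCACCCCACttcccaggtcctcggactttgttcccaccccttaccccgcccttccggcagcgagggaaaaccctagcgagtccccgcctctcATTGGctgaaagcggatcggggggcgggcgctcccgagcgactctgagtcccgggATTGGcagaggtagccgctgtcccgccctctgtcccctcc
Cyp51: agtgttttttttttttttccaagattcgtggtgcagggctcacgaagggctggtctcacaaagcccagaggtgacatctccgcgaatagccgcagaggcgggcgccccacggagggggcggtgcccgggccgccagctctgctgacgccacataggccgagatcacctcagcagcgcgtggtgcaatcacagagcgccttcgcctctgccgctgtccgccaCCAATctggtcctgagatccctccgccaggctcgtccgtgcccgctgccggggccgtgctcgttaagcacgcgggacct
Dhcr7: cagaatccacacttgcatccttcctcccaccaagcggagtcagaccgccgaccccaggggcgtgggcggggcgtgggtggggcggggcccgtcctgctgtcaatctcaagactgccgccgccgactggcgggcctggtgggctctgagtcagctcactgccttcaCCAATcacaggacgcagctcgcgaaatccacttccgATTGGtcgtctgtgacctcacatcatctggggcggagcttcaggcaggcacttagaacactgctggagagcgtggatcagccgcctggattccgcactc
Insig1: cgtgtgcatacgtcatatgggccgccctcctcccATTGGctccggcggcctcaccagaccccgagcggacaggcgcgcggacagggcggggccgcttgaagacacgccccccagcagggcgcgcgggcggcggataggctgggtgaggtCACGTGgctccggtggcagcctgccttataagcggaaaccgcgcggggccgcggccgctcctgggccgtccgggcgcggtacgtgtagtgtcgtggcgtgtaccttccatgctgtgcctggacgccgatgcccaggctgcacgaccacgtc
Lss: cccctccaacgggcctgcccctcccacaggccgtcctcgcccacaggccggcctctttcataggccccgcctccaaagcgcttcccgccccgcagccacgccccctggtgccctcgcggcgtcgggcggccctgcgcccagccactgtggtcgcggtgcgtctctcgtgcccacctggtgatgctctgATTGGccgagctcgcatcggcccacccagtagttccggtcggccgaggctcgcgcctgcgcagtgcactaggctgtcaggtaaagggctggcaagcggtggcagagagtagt
The sterol element core stood in the window of 1 gene, Hmgcs1, where it begins at position -137 from the start site and reads TCACCCCAC, and 1.24% of the 32851 windows in the table hold it on either strand. CACGTG stood in the windows of 2 genes, at position -101 in Insig1 and at position -164 in another Dhcr7 window, against 7.15% of all windows. CCAAT or its reverse complement stood in 6 of the 8 windows of the 6 genes, among them 1 of 3 windows of Dhcr7, the one shown, against 37.4% of all windows. The element core stood in 0 of the windows found for the lists of related genes described below, which cover 11 of 12 other pathway enzymes, 6 of 6 sterol sensing, 7 of 11 uptake, 5 of 7 efflux and 11 of 14 fatty acid genes. These matches are letters in a window, not measured binding sites, and no matches overlap in the windows shown.

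The 8 genes differed widely in level. On the authors' TPM scale, which accounts for length and allows genes to be compared, Hmgcs1 was the highest of the 8 in wt cells, with a mean of 307 TPM at E15.5, 82.7 at P5, 119 at P9 and 237 in adults. Idi1 and Fdps were the lowest at P9, with means of 5.42 and 4.15 TPM in wt. These 2 genes had 36 to 144 and 43 to 177 counts in a library, while Hmgcs1 had 63110 counts over the 24 libraries. Fdps shares at least 200 bases at 90% identity or more with 6 other genes, 5 of them processed pseudogenes, and Idi1 with 4, so the values of Idi1 and Fdps are uncertain where reads could be split. Hmgcs1 shares sequence with the antisense gene Gm48342, and how the counted strand relates to the library strand is not given in the sources used here, so reads of the antisense gene may be included; the other 5 genes have no such copy.

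**Figure D1:**
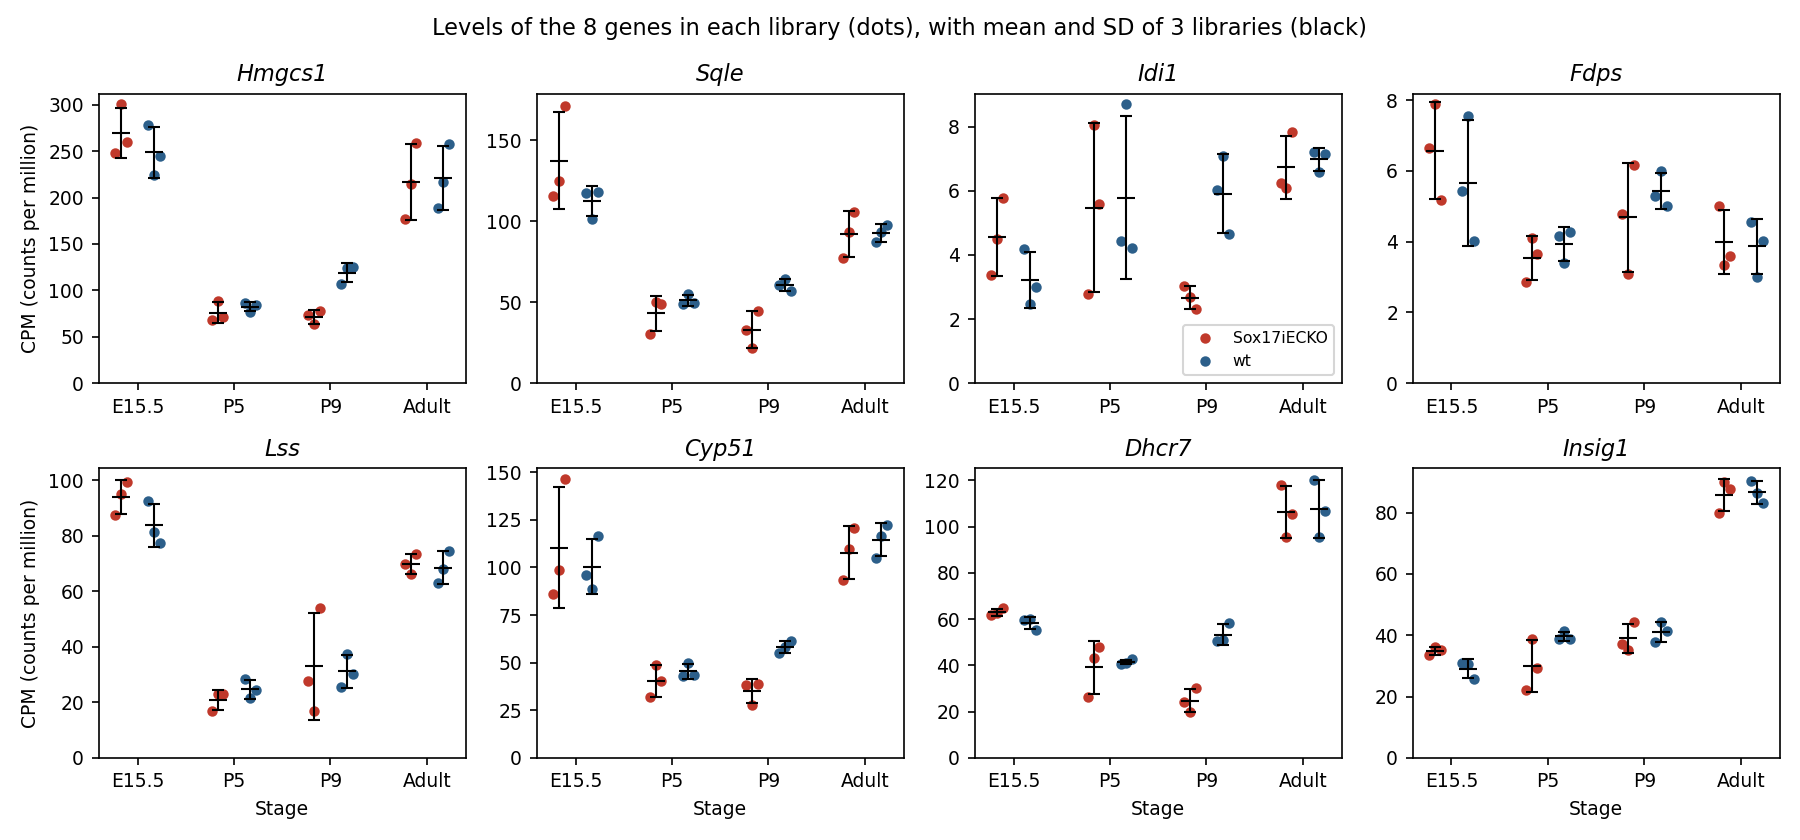
Level of each of the 8 genes in CPM (vertical axis, from 0) at E15.5, P5, P9 and in adults, with a dot for each Sox17iECKO (red) and wt (blue) library and the mean and SD of 3 libraries in black. At P9 all 3 Sox17iECKO dots lie below all 3 wt dots for Hmgcs1, Sqle, Idi1, Cyp51 and Dhcr7, and the dots overlap for Fdps, Lss and Insig1.

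At P9 the enzymes Hmgcs1, Idi1, Sqle, Cyp51 and Dhcr7 were lower in Sox17iECKO cells, while Fdps, Lss and Insig1 were not called. Hmgcs1 (ENSMUSG00000093930, mm10 chr13:119690462-119708086, plus strand), the enzyme that makes HMG-CoA, had 73.4, 63.5 and 78.1 CPM in Sox17iECKO libraries, against 107, 124 and 126 CPM in wt libraries. The groups did not overlap, and every Sox17iECKO library was below every wt library. The log2 fold change was -0.73 ± 0.14 (SE; 95% interval -1.02 to -0.44), with an adjusted p of 0.00032 by edgeR's quasi-likelihood test with Benjamini-Hochberg adjustment over the 17159 genes tested, which is the test behind every adjusted p here. A gene is said to be called, or to have risen or fallen, where that adjusted p is under 0.05.

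Idi1 (ENSMUSG00000058258, chr13:8885501-8892451, plus strand), which interconverts the 2 isoprenoid building units, had 3.03, 2.67 and 2.3 CPM in Sox17iECKO libraries, against 6.02, 7.08 and 4.64 CPM in wt. The groups did not overlap, but both were low in counts. Its log2 fold change was -1.16 ± 0.33 (interval -1.84 to -0.48, adjusted p 0.010), and without wt library 2, the highest, it was -1.01 with an adjusted p of 0.052. Fdps (ENSMUSG00000059743, chr3:89093588-89101959, minus strand), which builds farnesyl diphosphate, had 4.8, 3.1 and 6.16 CPM in Sox17iECKO libraries, against 5.3, 6 and 5 CPM in wt. The groups overlapped, with both the lowest and the highest value in Sox17iECKO, and no difference was detectable at this depth (log2 fold change -0.21, interval -0.76 to 0.33, adjusted p 0.58).

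Sqle (ENSMUSG00000022351, chr15:59315077-59331192, plus strand), the squalene epoxidase, had 33.1, 21.7 and 44.3 CPM in Sox17iECKO libraries at P9, against 60.8, 64.6 and 57.1 CPM in wt. Every Sox17iECKO library was below every wt library, although libraries 2 and 3 lay far apart. The log2 fold change was -0.88 ± 0.20 (interval -1.29 to -0.47, adjusted p 0.0017). Lss (ENSMUSG00000033105, chr10:76531588-76557138, plus strand), the next enzyme, had 27.6, 17 and 54.1 CPM in Sox17iECKO libraries, against 25.6, 37.5 and 30.3 CPM in wt. The Sox17iECKO libraries enclosed the wt range, and the log2 fold change was 0.08 ± 0.24 (interval -0.42 to 0.59, adjusted p 0.83). One library decided this value: without Sox17iECKO library 3 the log2 fold change of Lss was -0.50 with an adjusted p of 0.046.

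Cyp51 (ENSMUSG00000001467, chr5:4081145-4104746, minus strand), the lanosterol demethylase, had 38.2, 27.7 and 38.9 CPM in Sox17iECKO libraries at P9, against 55, 58.1 and 61.3 CPM in wt. The groups did not overlap, and the log2 fold change was -0.74 ± 0.18 (interval -1.10 to -0.37, adjusted p 0.0027). Dhcr7 (ENSMUSG00000058454, chr7:143823145-143848410, plus strand), the last reductase, had 24.2, 19.9 and 30.2 CPM in Sox17iECKO libraries, against 50.7, 50.9 and 58.5 CPM in wt. The highest Sox17iECKO library was thus well below the lowest wt library, and Dhcr7 had the smallest adjusted p of the 8, 1.5e-05, at a log2 fold change of -1.10 ± 0.16 (interval -1.44 to -0.77). Insig1 (ENSMUSG00000045294, chr5:28071363-28078662, plus strand), the regulator, had 37.2, 35.4 and 44.4 CPM in Sox17iECKO libraries, against 37.8, 44.3 and 41.5 CPM in wt. Its groups overlapped, and the lower bound of its interval (log2 fold change -0.08, interval -0.37 to 0.21, adjusted p 0.71) was above the estimate of each of the 5 called genes.

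In all, 5 of the 8 genes fell at P9 and 0 rose, beside 28% of all genes tested called at P9, 14.6% lower and 13.5% higher. The median log2 fold change of the 8 was -0.73, against 0.019 over all genes tested. Every Sox17iECKO library was below every wt library for the same 5 genes, an arrangement that 21.7% of all genes tested showed. Leaving out each Sox17iECKO library in turn left Hmgcs1, Sqle, Cyp51, Dhcr7 and Idi1 called. Without library 2, the lowest for 7 of the 8 genes, their log2 fold changes were -0.66 for Hmgcs1, -0.66 for Sqle, -0.60 for Cyp51, -0.98 for Dhcr7 and -1.18 for Idi1.

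RNA of other cell types moved between the genotypes at P9 as well. Summed astrocyte markers were 965 to 1459 CPM in Sox17iECKO libraries, against 600 to 705 CPM in wt, with 7 of 10 markers called higher. Summed pericyte markers were 693 to 1736 CPM in Sox17iECKO libraries, against 2686 to 3690 CPM in wt, with 4 of 7 called lower, and all 5 fibroblast markers were called lower, with sums of 141 to 184 CPM in Sox17iECKO and 302 to 390 CPM in wt. Of 4 smooth muscle markers tested 3 were called lower, with summed levels of 11.6 to 22.5 CPM in Sox17iECKO and 37.8 to 46.0 CPM in wt. The part of these cells in the lower levels of the 5 genes was not tested. In bulk samples such as these, fewer cells of a type and less RNA per cell cannot be told apart. Sox17iECKO library 2, the lowest for 7 of the 8 genes, had the lowest astrocyte (965 CPM), oligodendrocyte (1233 CPM) and neuronal (190 CPM) sums. It also had the highest endothelial (20407 CPM), pericyte, fibroblast and smooth muscle sums. Library 3, the highest for 7 genes, had the highest oligodendrocyte (1883 CPM) and neuronal (407 CPM) sums and the lowest endothelial sum (16466 CPM). Library 1 had the highest astrocyte sum (1459 CPM) and the lowest pericyte sum (693 CPM), and was the lowest for 0 genes. These orders over 3 libraries were not tested.

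**Figure D2:**
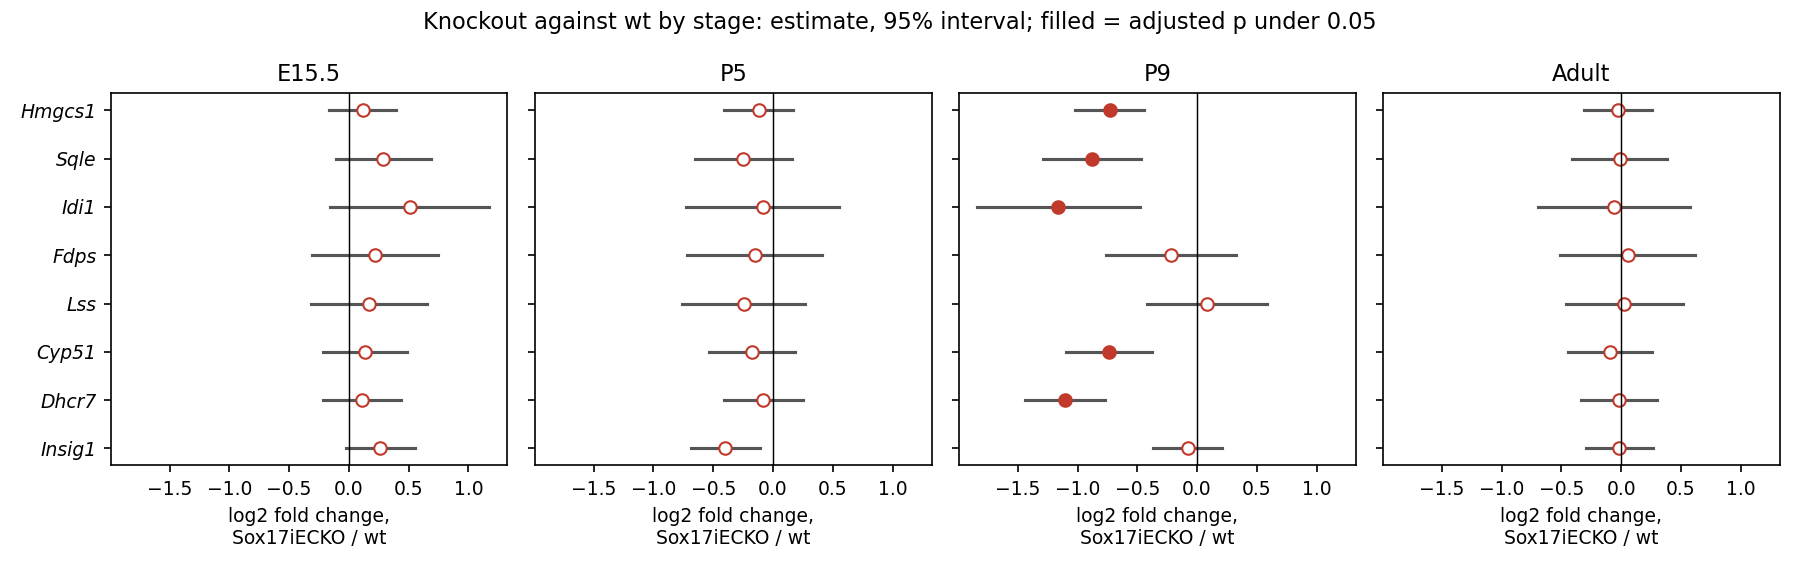
Log2 fold change of Sox17iECKO over wt for each of the 8 genes at each stage (horizontal axis, with 0 marked by a vertical line), with the 95% interval as a bar and a filled dot where the adjusted p is under 0.05. Filled dots stand at P9 alone, for Hmgcs1, Sqle, Idi1, Cyp51 and Dhcr7, at values of -0.73 to -1.16.

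At the other stages the genotypes were closer. At E15.5, 0 of the 8 genes were called, beside 0.548% of all genes tested, and 0 had an unadjusted p under 0.05. All 8 log2 fold changes at E15.5 were above 0, at 0.11 to 0.51 with a median of 0.19, and their intervals reached from -0.32 to 1.18. Without Sox17iECKO library 3 the value of Cyp51 was -0.12. The 8 genes tended to vary together between libraries, as given below, so a shared sign is not 8 separate observations. Dhcr7 had 61.6, 62.7 and 64.7 CPM in Sox17iECKO libraries, against 59.7, 60.3 and 55.4 CPM in wt, and Insig1 had 33.5, 36 and 35.1 CPM, against 30.9, 30.8 and 25.6 CPM in wt. For these 2 genes every E15.5 Sox17iECKO library was above every wt library, as for 4.99% of all genes tested, but the gap for Dhcr7 was small.

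At P5, 0 of the 8 were called, beside 0.53% of all genes tested. All 8 log2 fold changes were below 0, at -0.08 to -0.40 with a median of -0.17, and 1 gene had an unadjusted p under 0.05. That gene, Insig1, had 22, 38.8 and 29.3 CPM in Sox17iECKO libraries, against 38.7, 41.3 and 38.8 CPM in wt, a log2 fold change of -0.40 ± 0.14 with an adjusted p of 0.36. Library 1 carried much of the P5 values: without it the log2 fold changes moved to -0.22 for Insig1, 0.14 for Dhcr7 and 0.23 for Idi1, and without library 2 Insig1 was at -0.63 with an adjusted p of 0.028. In adults 0 of the 8 were called, beside 0.0874% of all genes tested, 0 had an unadjusted p under 0.05, and the median log2 fold change was -0.016. Adult Dhcr7 illustrates how close the genotypes were, with 118, 95.4 and 105 CPM in Sox17iECKO libraries and 120, 95.6 and 107 CPM in wt. The adult intervals were narrowest for Insig1, at -0.29 to 0.27, and widest for the low-count genes Idi1, at -0.69 to 0.58, and Fdps, at -0.51 to 0.62.

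The difference between stages was tested directly, as the genotype effect at P9 minus that at another stage. Against E15.5, 5 of the 8 genes were called lower, beside 15.8% of all genes tested called and 8.65% called lower: Idi1 by a log2 difference of -1.67 (adjusted p 0.014), Dhcr7 by -1.21 (0.00054), Sqle by -1.17 (0.0047), Cyp51 by -0.87 (0.016) and Hmgcs1 by -0.85 (0.0038). The call for Idi1 was lost without both E15.5 libraries numbered 3, at -1.42 with an adjusted p of 0.068, and that for Cyp51 was lost when the compared libraries were fitted alone (0.056). The call for Cyp51 was also lost without E15.5 Sox17iECKO library 3, its highest library there, with a difference of -0.62 and an adjusted p of 0.059. Against P5, Dhcr7 (-1.02, adjusted p 0.0032) and Hmgcs1 (-0.61, adjusted p 0.036) were called, beside 15.7% of all genes tested called and 8.44% called lower. Against adults, Dhcr7 (-1.09, adjusted p 0.0017), Sqle (-0.87, adjusted p 0.039) and Hmgcs1 (-0.70, adjusted p 0.017) were called, beside 13.2% called and 6.72% called lower. Sox17 itself was also called against adults, by -1.33 (adjusted p 0.013), so its loss was deeper at P9 than in adults. The part of this deeper loss in the differences from adults was not tested. Dhcr7 is the gene of the 8 whose effect at P9 differed from each of the other 3 stages under every left-out library. Hmgcs1 lost its call against P5 without any one of 7 libraries (P5 wt 1, 2 or 3, P5 Sox17iECKO 2, P9 wt 2 or 3, or P9 Sox17iECKO 2), with adjusted p values of 0.053 to 0.12, and against adults without adult wt library 1 (0.058) or adult Sox17iECKO library 3 (0.065). Sqle lost its call against adults without any one of 10 of the 12 P9 and adult libraries (adjusted p 0.053 to 0.10). The exceptions were P9 Sox17iECKO 3 and adult Sox17iECKO 1. Its call was also lost when libraries were scaled by DESeq2 size factors (0.064).

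A single test of whether the genotype effect varied over the 4 stages called Dhcr7 (adjusted p 0.0013), Hmgcs1 (0.015) and Sqle (0.024), beside 13.5% of all genes tested. Cyp51 (0.074), Idi1 (0.075) and Insig1 (0.12) missed the threshold, and Lss and Fdps were at 0.84 and 0.83. Single libraries moved some of these calls. Hmgcs1 was at 0.053 without P9 wt library 2 and 0.054 without P9 wt library 3, and Sqle was at 0.059, 0.071 and 0.051 without P9 wt library 1, P9 wt library 2 and P9 Sox17iECKO library 1. Cyp51 was called without E15.5 wt library 3 (0.041) or E15.5 Sox17iECKO library 1 (0.027), Idi1 without P5 wt library 2 or P5 Sox17iECKO library 1 (0.025 for each), and Insig1 without P5 Sox17iECKO library 2 (0.0071).

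Over development, wt cells had their lowest mean at P5 for Hmgcs1, Sqle, Lss, Cyp51 and Dhcr7, at E15.5 for Idi1 and Insig1, and in adults for Fdps. Hmgcs1 averaged 249 CPM at E15.5, 82.6 at P5, 119 at P9 and 221 in adults. Lss had the widest range of the 8, with its highest stage mean, E15.5, 3.38 times its lowest, P5. Hmgcs1 followed at 3.01 times and Insig1 at 2.98 times, while Fdps, at 1.47 times, varied least. Between E15.5 and P5, 5 of the 8 fell in wt cells, beside 66.6% of all genes tested called and 30.4% called lower. They were Lss (log2 fold change -1.76, adjusted p 1.4e-06), Hmgcs1 (-1.59, 1.2e-09), Cyp51 (-1.14, 4.2e-06), Sqle (-1.13, 2.3e-05) and Dhcr7 (-0.49, 0.0087). The regulator Insig1 went the other way, rising by 0.45 (adjusted p 0.0074), beside 36.2% of all genes tested called higher.

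Idi1 was also called higher at P5, by 0.86 (adjusted p 0.023), but its P5 wt libraries had 4.43, 8.71 and 4.22 CPM against 4.18, 2.48 and 3.01 CPM at E15.5. P5 library 2 stood far above the other 2, and without it the log2 fold change was 0.44 with an adjusted p of 0.25. The call for Idi1 was also lost without E15.5 wt library 2 (adjusted p 0.095) or 3 (0.061). Fdps was not called at -0.52 (adjusted p 0.084), and without E15.5 wt library 3 it was at -0.73 with an adjusted p of 0.025.

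Between P5 and P9, Hmgcs1 alone of the 8 was called in wt cells, rising by 0.53 ± 0.14 (adjusted p 0.027), beside 5.12% of all genes tested called and 2.67% called higher. Without any one of P5 wt libraries 1, 2 and 3 or P9 wt libraries 2 and 3 its adjusted p was 0.057 to 0.11. The other 7 had log2 fold changes of 0.03 to 0.47. Between P9 and the adult stage 6 of the 8 rose in wt cells, beside 61.1% of all genes tested called and 30.9% called higher: Lss by 1.14 (adjusted p 0.00030), Insig1 by 1.07 (4.9e-07), Dhcr7 by 1.01 (7.2e-06), Cyp51 by 0.98 (3.5e-05), Hmgcs1 by 0.89 (6.6e-06) and Sqle by 0.61 (0.0092). Idi1 and Fdps were at 0.23 and -0.50 and were not called.

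Between the ends of the series, 3 of the 8 genes were called, all higher in adult wt cells, a share close to that of all genes called higher. Insig1 was higher in adult wt than in E15.5 wt cells by 1.58 on the log2 scale (adjusted p 8.2e-10), Idi1 by 1.12 (0.0037) and Dhcr7 by 0.88 (3e-05), beside 69.6% of all genes tested called and 35.2% called higher. Insig1 had 90.4, 86.6 and 83.1 CPM in adult wt libraries, against 30.9, 30.8 and 25.6 CPM in E15.5 wt libraries. The remaining enzymes were nearer to their embryonic level, with log2 fold changes of -0.17 for Hmgcs1, -0.28 for Sqle, -0.29 for Lss and 0.19 for Cyp51. Fdps was at -0.55 (adjusted p 0.069), and at an adjusted p of 0.020 without E15.5 wt library 3.

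Glial RNA rose between P9 and the adult stage together with these genes. In wt cells all 10 oligodendrocyte markers were called higher in adults than at P9, with a median log2 fold change of 4.61, and 8 of 10 astrocyte and 7 of 7 microglial markers were called higher, while 7 of 7 pericyte markers were called lower. At E15.5, when Hmgcs1 and Lss were highest, summed oligodendrocyte markers averaged 60.2 CPM in Sox17iECKO and 65.8 CPM in wt libraries, and Mog and Mobp were at 0 in the Sox17iECKO libraries. Astrocyte sums at E15.5 were 293 CPM in Sox17iECKO and 274 CPM in wt, the lowest of the 4 stages. Summed neuronal markers were highest at E15.5, at 1535 CPM in Sox17iECKO and 1575 CPM in wt, against 278 and 215 CPM at P9. Summed endothelial markers in wt were 4580 CPM at E15.5, 15006 at P5, 15659 at P9 and 11034 in adults. The part of these cell types in the stage differences was not tested.

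Sox17iECKO cells had their lowest means of Hmgcs1, Sqle, Idi1, Cyp51 and Dhcr7 at P9. From E15.5 to P5, 6 of the 8 genes fell, beside 68.8% of all genes tested called and 31.4% called lower, by between 0.68 for Dhcr7 and 2.17 for Lss on the log2 scale. From P5 to P9, where 34.5% of all genes tested were called, 17% lower and 17.5% higher, Dhcr7 fell by 0.66 (adjusted p 0.0029) and Idi1 fell by 1.04 (adjusted p 0.017), while Lss rose by 0.66 (0.041) and Insig1 by 0.38 (0.039). All but the Dhcr7 call rest on single libraries. With the compared libraries fitted alone 0 of the 4 stayed called, with Dhcr7 at an adjusted p of 0.068. Idi1 was at -0.67 (adjusted p 0.16) without P5 Sox17iECKO library 2 and at an adjusted p of 0.056 without P9 Sox17iECKO library 3. Lss lost its call without P5 library 1, 2 or 3 and was at 0.07 (0.79) without P9 library 3. Insig1 lost its call without P5 library 1 (0.26) or 3 (0.097) or P9 library 1 (0.060) or 3 (0.19), and Sqle was called lower without P5 library 1 (0.031) or P9 library 3 (0.012).

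From P9 to the adult stage 7 of the 8 genes rose in Sox17iECKO cells, beside 59.6% of all genes tested called and 30.4% called higher. Dhcr7 rose most, by 2.10 on the log2 scale, followed by Cyp51 (1.63), Hmgcs1 (1.60), Sqle (1.48), Idi1 (1.34), Insig1 (1.14) and Lss (1.08), and Fdps was at -0.22. Ordered by group mean, P9 Sox17iECKO was the lowest of the 8 groups for Hmgcs1, Sqle, Idi1, Cyp51 and Dhcr7. Neighbours in that order often overlapped: for Idi1 and Fdps no neighbouring pair of groups was apart. For Insig1 there was 1 gap, between the adult Sox17iECKO and the P9 wt libraries, and for Lss the gaps lay between E15.5 wt and adult Sox17iECKO and between adult wt and P9 Sox17iECKO.

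Within groups the 8 genes tended to vary together from library to library. Over the 28 pairs of genes, the correlation of their deviations from the group means across the 24 libraries ranged from -0.11 for Fdps and Cyp51 to 0.86 for Sqle and Cyp51, with a median of 0.52. These values describe libraries that share depth and cell composition and carry no test. The mean z-score of the 8 genes was -0.94, -1.55 and -0.58 in the P9 Sox17iECKO libraries, against -0.19, 0.10 and -0.15 in P9 wt. At P5 it was -1.51, -0.40 and -0.71 in Sox17iECKO, against -0.58, -0.46 and -0.60 in wt, so that the lowest library at P5 was nearly as low as the lowest at P9.

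**Figure D3:**
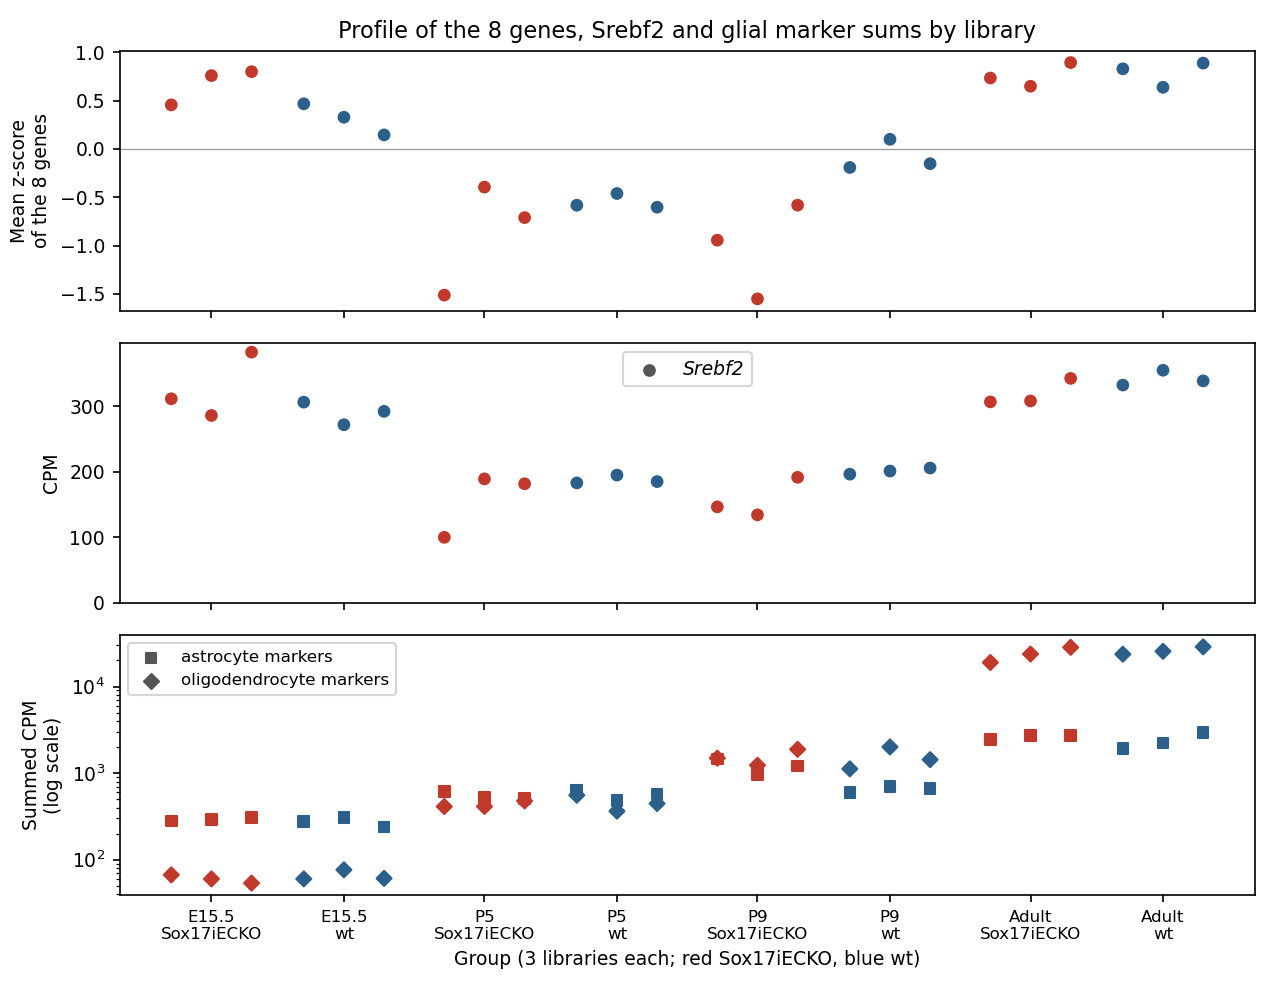
For each library, grouped by stage with Sox17iECKO (red) left of wt (blue), the mean z-score of log2 CPM over the 8 genes (top), Srebf2 in CPM (middle), and the summed CPM of 10 astrocyte and 10 oligodendrocyte markers on a log axis (bottom). The mean z-score and Srebf2 are lowest at P5 and P9, with P5 Sox17iECKO library 1 and P9 Sox17iECKO library 2 at the bottom, while the marker sums climb to the adult stage.

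The gene whose level was most like this mean over the 24 libraries was Srebf2, which encodes SREBP-2 (Pearson 0.963, Spearman 0.943, first among 13107 genes). The squalene synthase Fdft1 (0.914, 0.836) was also among the first 10, and the other 8 were Frmd5, Clstn1, Dusp12, Trim66, Nmral1, Itfg2, Shisa9 and Nap1l3, at a Pearson correlation of 0.901 to 0.927. The median over the 13107 genes was -0.057. The libraries fall into stages, so these values mostly reflect stage and are given as a description, and 2 of the 10 were also among the first 10 over the 8 group means.

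Srebf2 had 146, 134 and 191 CPM in P9 Sox17iECKO libraries, against 196, 201 and 205 CPM in P9 wt. Every Sox17iECKO library was below every wt library, with library 3 close to wt. The log2 fold change of -0.35 was not called (adjusted p 0.11), but was called without Sox17iECKO library 3, at -0.53 (0.025). In wt cells Srebf2 fell by 0.63 between E15.5 and P5 (adjusted p 0.0017) and rose by 0.77 between P9 and the adult stage (0.00030).

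Beyond the 8 genes, 5 of the 12 other enzymes of the pathway tested were called lower at P9 and 0 higher, beside 14.6% of all genes called lower and 13.5% higher, with a median log2 fold change of -0.37 against 0.019 over all genes. The sterol dehydrogenase Nsdhl (-0.69, adjusted p 0.0016), mevalonate kinase Mvk (-0.56, 0.0025), Fdft1 (-0.46, 0.013) and the acetyl-CoA thiolase Acat2 (-0.54, 0.031) led the list. The count of 5 ranged from 2 to 6 over left-out libraries and from 3 to 5 over other settings. The call for Fdft1 was lost without P9 wt library 3 (adjusted p 0.056) or Sox17iECKO library 2 (0.061), and that for Acat2 without P9 wt library 2 or 3 or Sox17iECKO library 1 or 2 (0.062 to 0.16). At E15.5, at P5 and in adults 0 of the 12 were called, with medians of 0.15, -0.043 and -0.063, and 0 genes of the lists that follow were called at those stages.

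The counts of the lists around synthesis at P9 stand beside the same 28% of all genes called, 14.6% lower and 13.5% higher. Of 6 genes of sterol sensing and SREBP processing, 1 was called, Insig2, the relative of Insig1, which rose by 0.39 (adjusted p 0.012), and this call was lost without P9 wt library 3 (0.068) or Sox17iECKO library 2 (0.097). Of 11 genes of lipoprotein uptake and intracellular sterol transport 2 were called, both higher, a share near that of all genes called higher, with a median of 0.16 over the list. They were Lipa, the lysosomal acid lipase that frees cholesterol from its esters, at 0.99 (8.4e-06), and Mylip, a ubiquitin ligase induced by LXR, at 0.93 (0.0012). Of 7 genes of the LXR receptors and cholesterol efflux, Apoe (1.03, adjusted p 7.5e-05), the receptor gene Nr1h2 (0.40, 0.00070) and Abca7 (0.63, 0.0053) were called higher. Abca7 lost its call without P9 Sox17iECKO library 3 (0.094). Apoe is also a product of astrocytes, whose markers were higher in these libraries, as given above, and their part in its rise was not tested.

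The efflux pump Abca1 was called lower at P9, with 537, 432 and 590 CPM in Sox17iECKO libraries, against 748, 780 and 776 CPM in wt (log2 fold change -0.56 ± 0.15, adjusted p 0.0078). At P5 its values lay the other way, at 1050, 1010 and 986 CPM in Sox17iECKO, against 825, 852 and 758 CPM in wt, a log2 fold change of 0.32 that was not called (adjusted p 0.63). The change of effect between P5 and P9 was itself called, at -0.89 (adjusted p 0.0069). Of 14 fatty acid synthesis genes, 3 rose and 4 fell at P9, beside 13.5% and 14.6% of all genes, with a median of -0.14. Acacb, a mitochondrial acetyl-CoA carboxylase, rose by 1.38 (2.8e-06) and Mid1ip1, an activator of acetyl-CoA carboxylase, by 1.13 (0.00014), while the desaturases Fads1 and Scd2 fell by 0.61 each (adjusted p 0.00037 and 0.0021).

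**Figure D4:**
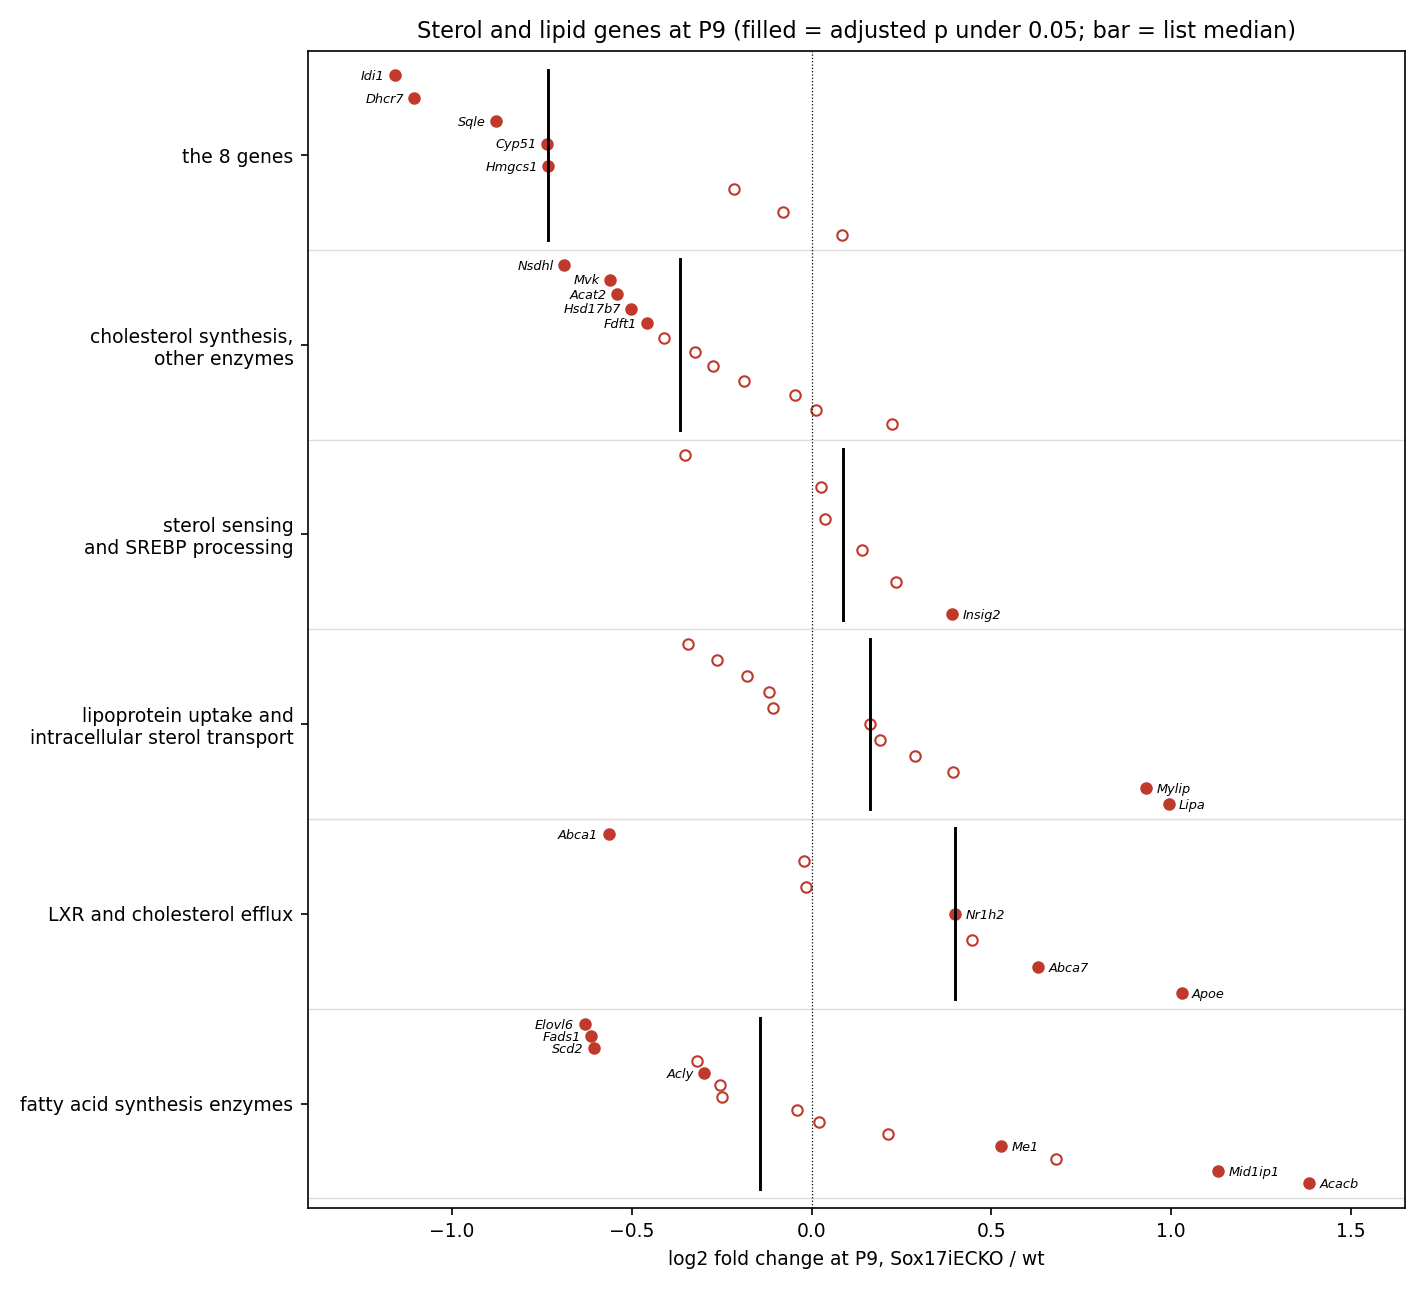
Log2 fold change of Sox17iECKO over wt at P9 (horizontal axis, 0 dotted) for the 8 genes and 5 lists of related genes, one dot a gene, filled and named where the adjusted p is under 0.05, with a black bar at each list's median. The 8 genes have a median of -0.73 and the other enzymes of the pathway -0.37, both with called genes on the lower side alone. The efflux and fatty acid lists hold called genes on both sides, and the called genes of the other lists, 1 and 2 in number, are on the higher side.

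In adult wt against E15.5 wt cells, 35.2% of all genes tested were called higher and 34.3% lower, and the counts of the lists stand beside these shares. Of the 12 other enzymes 7 were higher and 1 lower, with Msmo1 at 1.83, Sc5d at 1.59 and Ebp at 1.34. Of the uptake and transport genes 6 of 11 were higher and 3 lower, with Npc1 at 2.10, Scarb1 at 1.32 and Lrp8 at -1.52. Of the fatty acid genes 8 of 14 were higher and 1 lower, with the desaturases Scd1 at 4.60 and Scd2 at 2.36 and Acacb at 3.12. Srebf1, which encodes SREBP-1 and drives fatty acid synthesis, rose by 1.94, Insig2 by 0.87 and Scap by 0.31. Of the 7 efflux genes 4 were higher and 2 lower, with Apoe at 3.25, Nr1h2 at 1.11 and Abca1 at -1.61. Oligodendrocyte and astrocyte marker sums were higher in the same adult libraries, and their part in these values was not tested.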

How the data were processed

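The submitters sequenced strand-specific libraries of poly-A RNA on an Ion Proton instrument, and per the submitters' processing notes the software was STAR 2.5.3a, SAMtools 1.5, Trim Galore 0.4.1 and FastQC, with the mouse build mm10; the counting tool and annotation release are not given in the sources used here. Each of the 24 deposited files gives forward-strand read counts per gene, which the authors did not normalize, and these counts entered every test. The deposited TPM values, made by the authors, were used to compare levels between genes. The deposited FPKM values of the authors were not used, and 0 columns of other samples were present.

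Counts were analysed in R 4.3.3 with edgeR 4.0.16. Genes had to average 10 counts or more in any of the 8 groups, which kept 17159 of 45468 and all 8 described here, and libraries were scaled by TMM. The quasi-likelihood F test used 1 model of the 24 libraries, with a mean for each group and 16 residual degrees of freedom, and p-values were two-sided and adjusted by Benjamini-Hochberg over all genes tested. CPM values are TMM-scaled, means are given with 3 libraries a group, intervals are at 95% and cover the fitted spread, and mean z-scores use log2 CPM with a prior count of 2. Likeness to the mean z-score was ranked over genes that averaged 50 counts or more in any group, and unnamed gene models were left out. The counts per library limit precision most for Idi1 and Fdps. On simulated counts at P9 (17159 genes) the test recovered 38.8%, 73.1% and 93.9% of genes changed by 1.5-, 2- and 4-fold, with 9 false calls among 16959 unchanged genes. The simulation gave each gene the same spread in all groups and changed fewer genes than were called at P9. Real P9 Sox17iECKO replicates were less alike (correlations 0.971 to 0.985) than P9 wt replicates (0.989 to 0.990). These rates may therefore not hold for the real P9 comparison.

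The 8 genes and the lists were chosen with earlier results of these data known. From each list the text names up to 4 called genes with the smallest adjusted p for Sox17iECKO against wt at P9 and up to 3 for adult against E15.5 wt, and always Srebf2 and Abca1; Hsd17b7 and other called genes beyond this rule appear in a plot alone. Of the list genes 4 are not reported here and were left out of the counts, medians and likeness after the values were seen. Alternatives were DESeq2 (1.42.0) size factors and test, upper-quartile scaling, limma-trend (3.58.1), no low-count filter, the compared libraries alone, a replicate block, each library left out and both E15.5 libraries numbered 3 left out. The same alternatives for Sox17, for the named list genes and for the list counts were added after seeing the data. Near copies were found by aligning transcripts of GENCODE vM21, and promoter windows are from RefSeq. Marker lists covered 10 cell types; oligodendrocyte precursor and red cell, not named in the report, are given with the other observations.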

Additional observations from a re-analysis of the deposited data

Results flagged for a closer look

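The effect of genotype (log2 Sox17iECKO over wt) on 5 of the 8 genes differed between P9 and another stage. The difference itself was tested, by edgeR's quasi-likelihood test with Benjamini-Hochberg adjustment. Of all genes tested, 15.8% were called for P9 minus E15.5, 15.7% for P9 minus P5 and 13.2% for P9 minus adults. The share of all genes called in any of the 3 is not given here. For Hmgcs1 the effect at P9 minus that at E15.5 was -0.85 (adjusted p 0.0038), minus that at P5 -0.61 (0.036) and minus that in adults -0.70 (0.017). For Sqle it was -1.17 against E15.5 (0.0047) and -0.87 against adults (0.039), and the call against adults was lost with DESeq2 size factors (0.064). For Idi1, a gene with few counts, it was -1.67 against E15.5 (0.014), and for Cyp51 it was -0.87 against E15.5 (0.016). For Dhcr7 it was -1.21 against E15.5 (0.00054), -1.02 against P5 (0.0032) and -1.09 against adults (0.0017). In each case the effect at P9 was below 0. All 3 differences use the same P9 libraries, so they are not separate pieces of evidence. The loss of Sox17 itself was deeper at P9 than in adults (-1.33, adjusted p 0.013), and its part was not tested. Libraries that end single calls are named in the report.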

How the results depend on the processing

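The 2509 values under all alternatives comprise single-gene values and counts of called genes. Of them 2317 stayed the same, which means direction and side of the threshold for genes and rough size for counts. Among the rest, 71 single-gene values lost a call, 50 gained one, 47 changed sign and 24 counts moved. At P9 the calls for Hmgcs1, Sqle, Cyp51 and Dhcr7 held under every alternative, and 4 to 6 of the 8 genes were called over the left-out libraries. With a required log2 change of 1 as well, 2 of the 8 were called. The share of all genes at that threshold is not given here, so this count has no background to be read against. The count of all genes called moved more. At E15.5 it was 94, and 212 without the low-count filter, 148 by DESeq2, 16 with the compared libraries alone, 53 without both libraries numbered 3 and 55 to 93 over left-out libraries. At P5 it was 91, and 322 without the filter, 162 by DESeq2, 205 alone and 36 to 82 over left-out libraries. In adults it was 15, and 69, 36 and 40 under the same settings and 4 to 14 over left-out libraries. For the P9 effect minus that at E15.5 it was 2708, and 1716 alone. For wt P9 against P5 it was 879, and 1579 without the filter, 2063 alone and 305 to 630 over left-out libraries.

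Of the 8 genes, the count called for P9 minus P5 was 2, and 1 with DESeq2 size factors or test, 5 without the filter and 1 to 4 over left-out libraries. For P9 minus adults it was 3, and 5 without the filter or alone and 1 to 3 over left-out libraries. With DESeq2 size factors the call for Sqle was lost there. For wt P9 against P5 it was 1, and 3 alone and 0 to 1 over left-out libraries; for wt adults against E15.5 it was 3, and 5 without the filter or alone; for Sox17iECKO P9 against P5 it was 4, and 0 alone and 2 to 4 over left-out libraries. At P5 it was 0 to 1 over left-out libraries. The test over the 4 stages called 3, and 5 without the filter, 5 with a replicate block and 1 to 4 over left-out libraries.

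Changes of sign fell on values that were not called, of 0.33 or less in size. For Lss at P9 (0.08) limma gave -0.063 and the replicate block -0.046, and left-out libraries -0.50 to 0.39. For Lss, P9 minus E15.5 was 0.012 without both E15.5 libraries numbered 3 and -0.67 to 0.22 over left-out libraries, P9 minus adults was -0.092 with limma, -0.075 with the replicate block and -0.53 to 0.36 over left-out libraries, and P9 minus P5 was -0.26 to 0.63. For Fdps, P9 minus P5 was 0.017 with DESeq2 size factors, 0.016 by DESeq2 and -0.33 to 0.16 over left-out libraries. For Insig1, P9 minus adults was 0.0040 with DESeq2 size factors and 0.0042 by DESeq2. Over left-out libraries Cyp51 at E15.5 was -0.12 to 0.29; Idi1 and Dhcr7 at P5 were -0.46 to 0.34 and -0.26 to 0.14; Fdps at P9 was -0.49 to 0.0068. In adults Hmgcs1 was -0.18 to 0.10, Sqle -0.12 to 0.10, Idi1 -0.18 to 0.0079, Fdps -0.15 to 0.19, Lss -0.031 to 0.091, Cyp51 -0.18 to 0.0056, Dhcr7 -0.10 to 0.069 and Insig1 -0.048 to 0.035. Idi1 was -0.15 to 0.46 for wt P9 against P5 and -0.12 to 0.57 for Sox17iECKO P5 against E15.5, Hmgcs1 -0.16 to 0.039 for Sox17iECKO P9 against P5, and Fdps -0.46 to 0.036 for Sox17iECKO adults against P9. The cause was not tested.

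The labels number the replicates, and 2 of 12 pairs with the same number had deviations correlated over 0.1 (-0.081 to 0.486). Both pairs were at E15.5, libraries 2 at 0.368 and libraries 3 at 0.486. Over all stages, 6 of 12 Sox17iECKO libraries were closest to wt of their own number. Outside E15.5 the numbers did not pair the libraries. What E15.5 libraries of the same number shared was not tested, and the main model did not use the numbers. The replicate block changed no call of the 8 genes at P9. Depth limits Idi1 and Fdps most.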

Other observations

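Some marker values were not given above. The smooth muscle marker Cnn1 was at 0 in E15.5 Sox17iECKO libraries. Summed oligodendrocyte precursor markers were 363 CPM in P9 Sox17iECKO and 423 CPM in P9 wt libraries, with 1 of 8 called higher and 1 lower. Summed microglial markers were 11.0 CPM in P9 Sox17iECKO and 9.96 CPM in P9 wt libraries, against 227 CPM in adult Sox17iECKO and 183 CPM in adult wt libraries. Summed red cell markers were 666 CPM in E15.5 Sox17iECKO and 2893 CPM in E15.5 wt libraries, with 5 of 6 markers called lower, at a stage where the 8 cholesterol genes had a median log2 fold change of 0.19.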
